A study of Mus musculus with 2 samples.

Results

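Growth arrest-specific 6 (Gas6) and the receptors Axl, Mertk and Tyro3 are 4 of the 27999 features in the count matrix, chosen by symbol and each found once. Unique molecular identifiers (UMIs, counted molecules captured at their polyadenylated end) of these genes were summed over the 8786 cells of the authors' cell table, first by library and then by cell classes rebuilt from marker genes. The 4 genes and the other genes of the pathway took no part in that clustering. Protein S (Pros1), the receptors' other ligand, was followed beside them.

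The data were 2 droplet single-cell RNA libraries of mouse bone marrow, 1 for each sorted population. Both came from mice of strain C57Bl/6JCrl and genotype LepR-Cre;LSL-tdTomato, aged 3-4 months, so that the reporter marks cells that express the leptin receptor and any descendants that no longer do. The library LepR_tdT held 4250 cells labelled as tdTomato-positive, and the library EC held 4536 cells labelled as marrow endothelium. The labels give 1 protocol with overlapping sample numbers, in which some mice received tamoxifen by gavage and some an intravenous antibody to VE-cadherin. Neither the number of mice behind a library nor the exact gate is stated. With 1 library per population there is no replicate: the intervals below are exact 95% intervals for counting error only, and no p-value is given.

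Gas6 is a vitamin K-dependent protein whose gamma-carboxylated domain binds phosphatidylserine on dying cells and whose other end binds the receptor tyrosine kinases Tyro3, Axl and Mertk. The ligand thereby bridges a dying cell to the cell that engulfs it, a role best known for Mertk in macrophages, and the receptors also dampen inflammatory signalling. In bone marrow, stromal cells have been described as a source of Gas6 for blood-forming and leukaemic cells that carry Axl.

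On GRCm38, Gas6 (ENSMUSG00000031451) lies on the minus strand of chromosome 8 from 13465374 to 13494490 and Axl (ENSMUSG00000002602) on the minus strand of chromosome 7 from 25757273 to 25788705. Mertk (ENSMUSG00000014361) lies on the plus strand of chromosome 2 from 128698956 to 128802894, and Tyro3 (ENSMUSG00000027298) on the same strand and chromosome from 119797733 to 119818104. The 3 promoters below belong to the ligand and to the pair of receptors with the most UMIs. Each is the 250 bases before the start that RefSeq gives the gene on its own strand of GRCm38.p6. These RefSeq starts differ from the positions above, and the distances below are counted from the RefSeq starts. Capitals mark GC boxes, the hexamer GGGCGG on either strand, which Sp1-family factors recognise.
Gas6: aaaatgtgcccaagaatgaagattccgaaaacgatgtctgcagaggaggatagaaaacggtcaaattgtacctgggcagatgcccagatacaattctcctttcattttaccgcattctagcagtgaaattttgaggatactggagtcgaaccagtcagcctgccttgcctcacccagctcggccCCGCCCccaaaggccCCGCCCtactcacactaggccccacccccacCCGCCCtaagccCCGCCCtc
Axl: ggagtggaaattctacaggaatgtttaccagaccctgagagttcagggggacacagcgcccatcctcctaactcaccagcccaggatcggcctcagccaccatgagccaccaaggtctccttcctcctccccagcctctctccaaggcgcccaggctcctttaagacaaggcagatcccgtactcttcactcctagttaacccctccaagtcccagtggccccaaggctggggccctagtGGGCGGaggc
Mertk: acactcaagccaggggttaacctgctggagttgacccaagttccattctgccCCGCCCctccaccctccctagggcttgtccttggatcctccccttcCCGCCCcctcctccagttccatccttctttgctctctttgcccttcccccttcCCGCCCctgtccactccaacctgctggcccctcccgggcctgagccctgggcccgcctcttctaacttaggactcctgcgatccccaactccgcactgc
The Gas6 window is chr8:13494536-13494785 and holds 4 GC boxes, the nearest of them 8 to 3 bases before the start. The Axl window is chr7:25788734-25788983 and holds 1, from 10 to 5 bases before the start. The Mertk window, chr2:128698665-128698914, holds 3, none nearer than 94 bases. Over all 32851 promoters of the same length, 32.7% held a GC box, so its presence is common. Letters for RUNX (TGTGGT), ETS (CCGGAA) and C/EBP (TTGCNNAA) factors were searched on both strands and occurred in none of the windows of Gas6, Axl, Mertk, Tyro3 and Pros1. In all promoters they occurred in 14.0%, 12.0% and 9.56% respectively. The Tyro3 window, chr2:119799264-119799513 by its RefSeq start, lies inside the gene as placed above. The windows differed in base composition: 54.8% of the bases were G or C in Gas6, 60% in Axl, 63.6% in Mertk and 73.2% in Tyro3, beside a median of 52.4% over all promoters. Such matches describe letters and not bound sites.

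The libraries held 21983361 UMIs (LepR_tdT) and 18152304 UMIs (EC), of which 82.5% and 77.7% lay in the cells of the table, with median depths of 4347 and 3084.5 UMIs per cell. The markers gave 3219 stromal-like and 236 osteolineage-like cells in LepR_tdT and 3440 sinusoidal-like and 247 arterial-like cells in EC, which together form the 3687 endothelial-like cells. A further 666 and 711 cells, mostly shallow, stayed unnamed. Lepr lay at 655 UMIs per 1000000 UMIs of the class (CPM) in stromal-like cells and at 16.8 CPM in the endothelium of EC. Cdh5 (VE-cadherin) lay at 1.08 and 838 CPM, but Lepr and Cdh5 are naming markers of these classes. The tdTomato reporter, used in neither clustering nor naming, lay at 19.4 and 1.87 CPM. Whole libraries, which need no classes, held Lepr at 608 CPM in LepR_tdT and 16.4 CPM in EC, and Cdh5 at 9.48 and 793 CPM. LepR_tdT also held 60 endothelial-like and 17 pericyte-like cells. The libraries shared 42 cell barcodes, against 26.1 by chance. With those cells the log2 ratio of stroma over endothelium was 5.46 for Gas6, -0.89 for Axl, -1.38 for Mertk and -1.07 for Tyro3. Without them it was 5.46, -0.89, -1.39 and -1.07, and no call changed.

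Gas6 was far higher in stroma, while its receptors were present in both populations at somewhat higher levels in endothelium. The stromal class held 76516 Gas6 UMIs, or 4876 CPM (4842 to 4911), and the endothelial class of EC 1422, or 110.7 CPM (105 to 117). The ligand was thus 44.1-fold higher (41.8 to 46.5) on the stromal side. Mertk leaned the other way: endothelium held 30.0 CPM and stroma 11.5 CPM, a 2.60-fold difference (2.18 to 3.13). Axl did so by less, 1.86-fold (1.67 to 2.06), at 68.6 and 37.0 CPM. Tyro3 was also higher in endothelium, at 2.41 and 1.15 CPM from 31 and 18 UMIs, with a fold between 1.14 and 3.99. A gene was called here when its ratio passed 2-fold and its interval left out no difference. By that rule Gas6 was called higher in stroma, Mertk and Tyro3 in endothelium, and Axl in neither. Among the 12934 genes with at least 20 UMIs in both classes together, 38.9% were called, 21.4% higher in stroma and 17.4% higher in endothelium, so a call by itself was common. Whole libraries, without any clustering, gave Gas6 a log2 ratio of 5.40 (5.32 to 5.47), Axl -0.77 (-0.91 to -0.63), Mertk -1.28 (-1.53 to -1.04) and Tyro3 -0.90 (-1.76 to -0.07). There 38.6% of 13456 genes were called, 20.9% higher in LepR_tdT and 17.6% higher in EC, and Axl and Tyro3 were not among them.

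**Figure D1:**
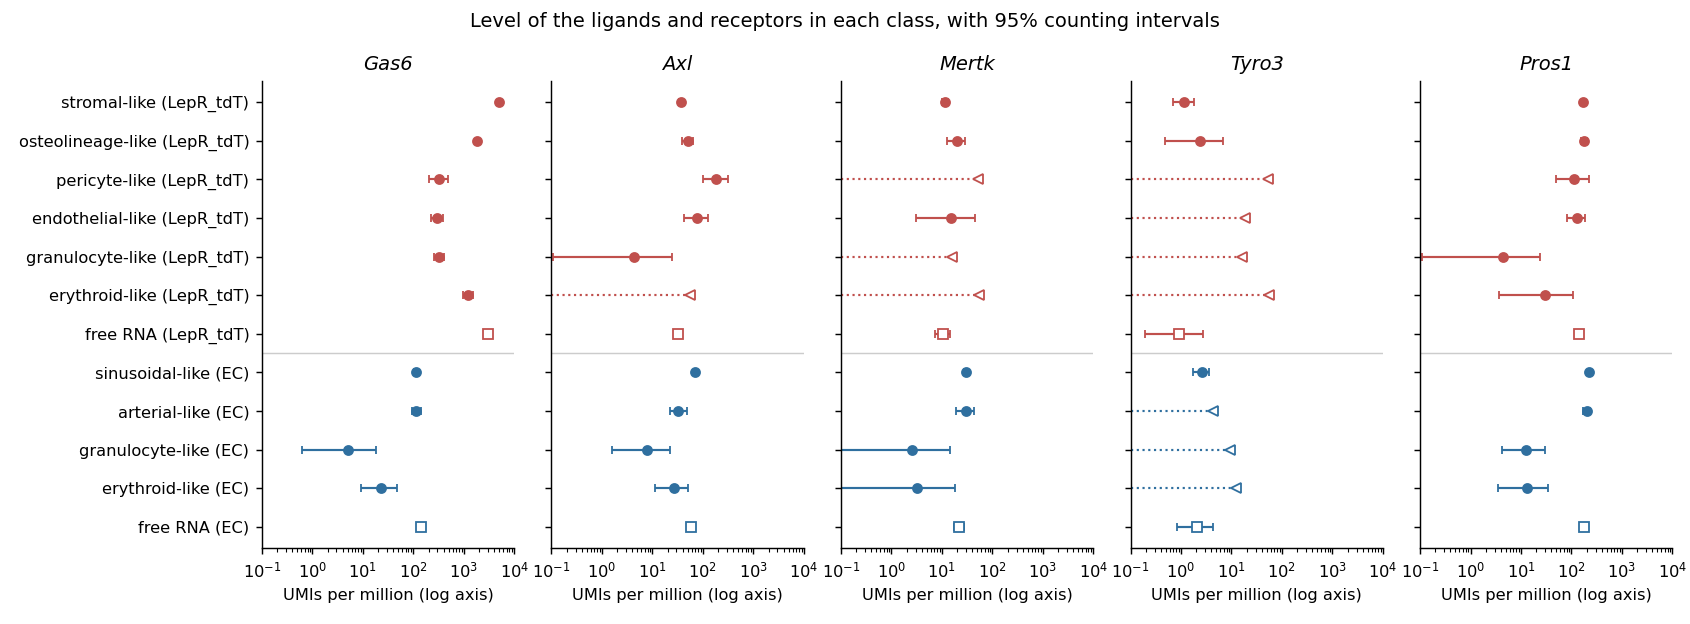
Level of each gene (UMIs per 1000000 UMIs of the class, log axis) by class; filled circles are summed cells, open squares free RNA, bars exact 95% counting intervals, and open triangles the upper limit where no UMI was seen (red LepR_tdT, blue EC). Gas6 lies at 4876 CPM in stromal-like cells and near 110 CPM in both endothelial subclasses, while Axl and Mertk lie within 11.5 to 71.1 CPM in the 4 large classes.

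Gas6 in the stromal-like class was a property of nearly every cell. A Gas6 UMI was seen in 3217 of 3219 stromal-like cells (99.9%, median depth 4714 UMIs). Granulocytes serve as a class that should lack the gene: the same share was 48% of 25 granulocyte-like cells in LepR_tdT (median depth 6779 UMIs) and 5.26% of 38 in EC (median depth 10155.5 UMIs). After every cell was thinned to 1000 UMIs, 97.1% of 3203 stromal-like cells still held a Gas6 UMI, against 11.8% of 17 granulocyte-like cells of LepR_tdT. These thinned cells had a median of 5 Gas6 UMIs, a 5th percentile of 1 and a 95th percentile of 10, and their variance was 1.67 times their mean. Counting alone gives a ratio of 1. At their own depth the same cells held a median of 21 and up to 113 Gas6 UMIs.

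Stromal clusters differed little in the ligand. The main stromal cluster of 2952 cells lay at 4992 CPM (4955 to 5029), and the cluster of 267 cells led by Cxcl5 and Kit at 3867 CPM (3771 to 3964), a log2 ratio of -0.37 (-0.41 to -0.33) that was not called. In that comparison 6.71% of 11750 genes were called, in either direction. At the finer clustering the stromal-like clusters lay at 5233, 5032, 4433 and 4357 CPM, the second of these from 353 shallow cells. Of all 80993 Gas6 UMIs in cells of LepR_tdT, 94.5% were in stromal-like cells.

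Osteolineage-like cells, which express bone matrix genes such as Ibsp, Col1a1 and Bglap, carried less Gas6. Their level was 1827 CPM (1754 to 1903) from 2333 UMIs, 2.67-fold below the stromal-like cells, with a log2 ratio of -1.42 (-1.48 to -1.36). Among 11916 genes, 10.8% were called in this comparison, 4.88% higher in osteolineage-like and 5.91% higher in stromal-like cells. The size of this difference rested on where the class was drawn: at a clustering resolution of 1.0 the osteolineage-like class grew to 445 cells, its Gas6 level was 3436 CPM, and the log2 ratio of -0.50 (-0.53 to -0.46) was not called. Single cells of the class were mixed. After thinning, 32.1% of 234 osteolineage-like cells held no Gas6 UMI, the median was 1, and the variance was 2.38 times the mean.

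The same difference was followed along a ranking. Since the ranking uses the markers that name the class, it is not independent of it. The 3455 stromal-like and osteolineage-like cells were ordered by their mean scaled expression of the 10 osteolineage markers and divided into 10 equal groups. Gas6 stayed between 4458 and 5049 CPM in the first 9 groups and was 2852 CPM (2775 to 2931) in the last, which held 180 of the 236 osteolineage-like cells. Adipoq, which encodes the hormone adiponectin and is a stromal naming marker, lay between 2255 and 3273 CPM in the first 9 groups and at 1181 CPM in the last. The receptors showed no such fall. Axl was 34.6 CPM in the last group, within its range of 23.8 to 46.2 CPM in the others, and Mertk was 19.8 CPM (13.8 to 27.3) there against 9.19 to 13.9 CPM.

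Osteolineage-like cells were not uniform for Axl either. In a division chosen after the values were seen, the 135 cells with a UMI of Bglap, which encodes osteocalcin, held 15 Axl UMIs (19.3 CPM, 10.8 to 31.8). The 101 cells without one held 49 (98.3 CPM, 72.7 to 130). The log2 ratio was -2.35 (-3.29 to -1.49), where 4.49% of 6644 genes were called and 2.83% were lower in cells with Bglap. Gas6 was level across the same division, at 1818 and 1842 CPM (-0.02, -0.14 to 0.10). It differed instead with Adipoq, at 2259 CPM in the 108 cells with an Adipoq UMI and 1410 CPM in the 128 without (0.68, 0.56 to 0.80). It also differed with Postn, which encodes periostin, at 1407 CPM in 129 cells with and 2399 CPM in 107 cells without a UMI (-0.77, -0.89 to -0.65). Cells with a Bglap UMI were deeper, at a median of 5255 against 4628 UMIs, and Bglap and Postn are naming markers of this class.

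**Figure D2:**
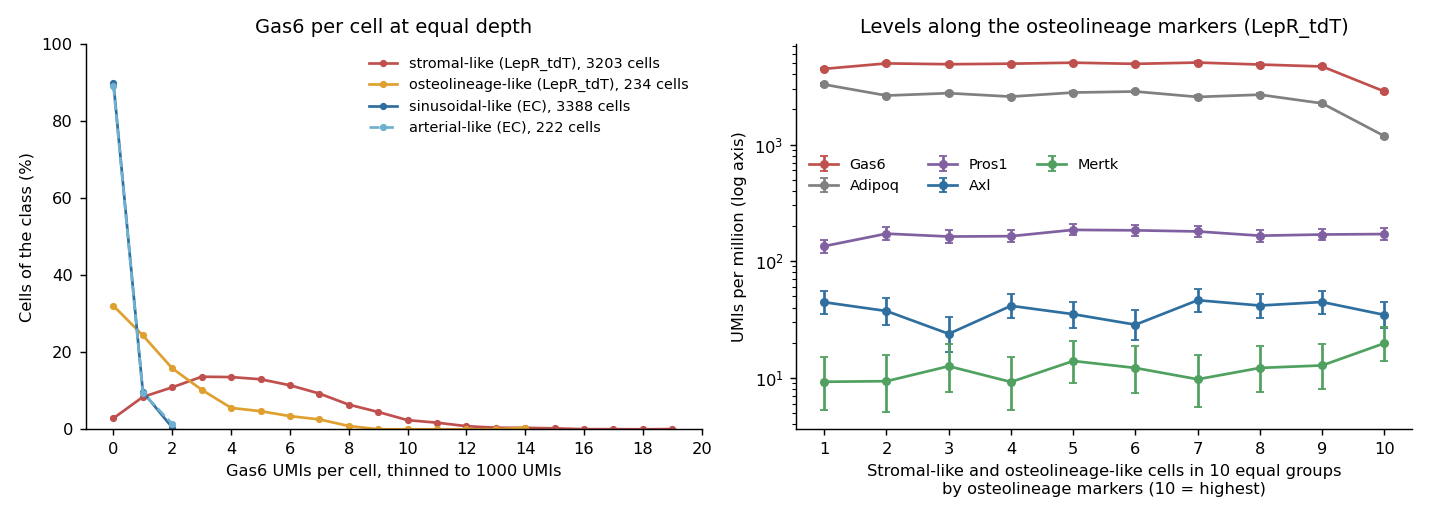
Left, percent of cells of each class (y axis) by Gas6 UMIs per cell after thinning to 1000 UMIs (x axis); right, UMIs per 1000000 (log axis) of 5 genes in 10 equal groups of stromal-like and osteolineage-like cells ordered by osteolineage markers, with exact 95% counting intervals. Stromal-like cells centre on 5 UMIs and 32.1% of osteolineage-like cells lie at 0; Gas6 and Adipoq are lowest in the last group.

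Endothelial cells held a low level of Gas6 that was the same in both subclasses within counting error. It was 110.5 CPM (104.6 to 117) in sinusoidal-like and 113.8 CPM (92.3 to 138.8) in arterial-like cells, a log2 ratio of 0.04 (-0.27 to 0.34). No endothelial-like cell of EC held more than 4 Gas6 UMIs, and after thinning 10.2% and 10.8% of the cells held any. Free RNA, measured in droplets outside the cell table with at most 100 UMIs, is the level to set beside these values. It held Gas6 at 141 CPM in EC. Sinusoidal-like cells carried Gas6 at 78.1% of its free-RNA level, and arterial-like cells at 80.4%. For 5 genes restricted to stroma (Adipoq, Chrdl1, Kng1, Kng2 and Gdpd2) the figure in sinusoidal-like cells was 13.6%, from 31 UMIs. Arterial-like cells held 1 such UMI, too few for a share. In granulocyte-like cells of EC, Gas6 stood at 3.61% of its free-RNA level. Subtracting free RNA at the share given by the stromal genes left 106 CPM in sinusoidal-like cells, and none of the 3687 cells held UMIs of 2 or more of those 5 genes.

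The 60 endothelial-like cells inside LepR_tdT allow the comparison within 1 library. Gas6 lay there at 293 CPM (223 to 379), 16.6-fold below the stromal-like cells of the same library, a log2 ratio of -4.05 (-4.45 to -3.68). In this comparison 18.8% of 11842 genes were called, 8.88% higher in these endothelial-like and 9.94% higher in stromal-like cells. Free RNA of LepR_tdT held Gas6 at 2980 CPM. The 60 cells carried Gas6 at 9.84% and the 5 stromal genes at 7.13% of their free-RNA levels, and subtraction left 87.0 CPM. The part of free RNA in the 58 Gas6 UMIs was measured in no other way. The 17 pericyte-like cells, mural cells of small vessels, held 328 CPM (208 to 492), and 143 CPM after subtraction. Granulocyte-like cells of LepR_tdT held 327 CPM, but 59 of their 76 UMIs lay in 1 cell, and 77 of the 81 UMIs in erythroid-like cells lay in 1 cell as well.

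By level as counted, Gas6 ran from stromal-like to osteolineage-like cells, whose interval overlapped with that of the 8 cells led by cell cycle genes in LepR_tdT (1893 CPM). Pericyte-like and endothelial-like cells of LepR_tdT followed, with overlapping intervals, and then arterial-like and sinusoidal-like cells of EC, which overlap as well. The order of the endothelial-like cells of the libraries is not fixed. Once free RNA is subtracted, 87.0 CPM is left in LepR_tdT and 106 CPM in sinusoidal-like cells of EC, values that have no interval. Erythroid-like and granulocyte-like cells of LepR_tdT, at 1204 and 327 CPM, are not placed because 1 cell decides the level of each class. The unnamed cells are not placed either. The 16 cells of EC led by cell cycle genes held 36.6 CPM (7.55 to 107) from 3 UMIs. Lowest were the erythroid-like cells of EC at 22.9 CPM (9.21 to 47.2) and its granulocyte-like cells at 5.10 CPM (0.618 to 18.4), overlapping again.

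Pros1, which encodes the anticoagulant protein S and is a ligand of Tyro3 and Mertk, had a flat profile where Gas6 had a steep one. It lay at 168 CPM (162 to 174) in stromal-like, 179 CPM (156 to 203) in osteolineage-like, 218 CPM (209 to 226) in sinusoidal-like and 202 CPM (173 to 234) in arterial-like cells. The stromal against endothelial log2 ratio was -0.37 (-0.45 to -0.29) and the gene was called in neither. Granulocyte-like and erythroid-like cells of EC held 12.8 and 13.1 CPM. Shares of cells with a Pros1 UMI were 52.9% in stroma and 51.4% in endothelium, against 7.89% of granulocyte-like cells of EC, which were deeper.

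Axl, the receptor with the highest known affinity for Gas6, was spread across the stromal and vascular classes. It lay at 37.0 CPM (34.0 to 40.1) in stromal-like, 50.1 CPM (38.6 to 64.0) in osteolineage-like, 71.1 CPM (66.4 to 76.1) in sinusoidal-like and 32.8 CPM (21.8 to 47.5) in arterial-like cells. The interval of sinusoidal-like cells lay above those of the other 3 classes, while those of stromal-like and arterial-like cells overlapped. Free RNA held Axl at 32.1 CPM in LepR_tdT and 57.6 CPM in EC. Granulocyte-like cells in the same droplet suspensions held 4.31 CPM (0.109 to 24.0) from 1 UMI in LepR_tdT and 7.65 CPM (1.58 to 22.4) from 3 UMIs in EC. An Axl UMI was seen in 15.5% of stromal-like and 20.6% of sinusoidal-like cells at their own depth. In granulocyte-like cells the share was 4% (0.101 to 20.4) of 25 in LepR_tdT and 7.89% (1.66 to 21.4) of 38 in EC. After thinning, it was seen in 3.62% of stromal-like, 4.70% of osteolineage-like, 6.82% of sinusoidal-like and 2.25% of arterial-like cells. Of 30 granulocyte-like cells of EC 0 held one, which allows up to 11.6%. The granulocyte intervals contain the shares they are set beside, so shares of cells do not separate these classes.

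Within the endothelium Axl leaned to the sinusoids. It was 2.17-fold lower in arterial-like cells, with a log2 ratio of -1.11 (-1.71 to -0.57), from 28 and 853 UMIs. Of 11105 genes, 11% were called between these subclasses, 7.01% higher in arterial-like and 3.97% higher in sinusoidal-like cells, while Gas6, Mertk and Pros1 were called in neither. At a resolution of 1.0 the Axl ratio was -0.90 (-1.35 to -0.47) and no longer passed 2-fold. The stress-led sinusoidal cluster, whose leading genes include the immediate early genes Apold1, Atf3 and Klf4, held Axl at 76.0 CPM against 67.0 CPM in the other, a log2 ratio of 0.18 (-0.02 to 0.38). In that comparison 2.56% of 10960 genes were called, and none of the 4 members was.

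The few mural cells had the highest Axl level of the classes as counted, with a wide interval. That of the 8 cells of LepR_tdT led by cell cycle genes, at 112 CPM (41.3 to 245), overlapped with it. After thinning, 1 of 16 pericyte-like cells held an Axl UMI (6.25%, 0.158 to 30.2). The 17 pericyte-like cells held 13 Axl UMIs, in 9 of the cells, which is 185 CPM (98.6 to 317) and 5.01-fold (2.65 to 8.64) above stromal-like cells. There 9.33% of 11789 genes were called, 5.68% higher in pericyte-like and 3.65% higher in stromal-like cells. The class level was 578% of the free-RNA level of Axl in the library, while the 5 stromal genes stood at 313 CPM in the class and 4822 CPM in free RNA. Endothelial-like cells of LepR_tdT held 15 Axl UMIs in 15 cells, 75.9 CPM (42.5 to 125) and 2.05-fold (1.14 to 3.41) above the stromal-like cells of the same library. This was close to the 71.1 CPM of sinusoidal-like cells in EC.

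**Figure D3:**
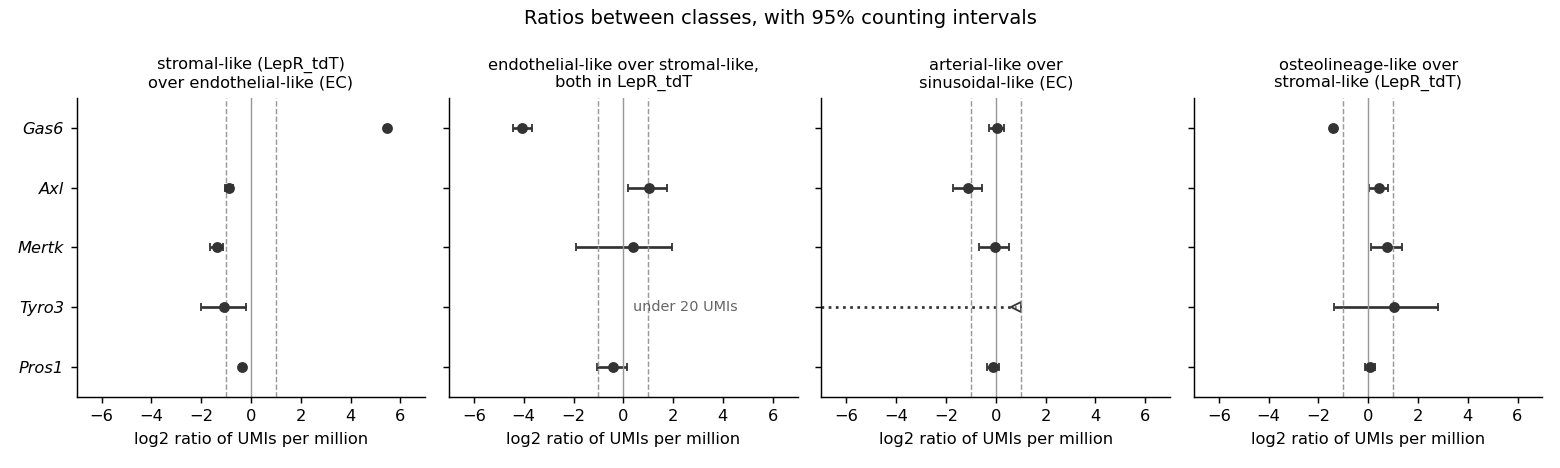
Log2 ratio of class levels (x axis) for Gas6, Axl, Mertk, Tyro3 and Pros1 in each comparison, with exact 95% counting intervals; dashed lines mark 2-fold, the open triangle with a dotted line the upper limit where one class held no UMI, and a gene under 20 UMIs has no point. Gas6 has a ratio of 5.46 between stroma and endothelium, and Axl and Mertk point the other way at -0.89 and -1.38.

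Mertk, the receptor best known for the engulfment of dying cells by macrophages, had its higher levels in endothelium. It lay at 30.1 CPM (27.1 to 33.4) in sinusoidal-like and 29.3 CPM (19.0 to 43.3) in arterial-like cells, against 11.5 CPM (9.92 to 13.3) in stromal-like and 19.6 CPM (12.7 to 28.9) in osteolineage-like cells. The endothelial subclasses did not differ beyond counting error, with a log2 ratio of -0.04 (-0.68 to 0.55). After thinning the ratio was -0.95 (-2.85 to 0.44), with arterial-like cells at 18.0 CPM (4.91 to 46.1), so the difference is poorly fixed at this depth. Free RNA held Mertk at 10.5 CPM in LepR_tdT and 22.2 CPM in EC, and granulocyte-like cells of EC held 1 UMI (2.55 CPM). A Mertk UMI was seen in 9.59% of sinusoidal-like and 5.47% of stromal-like cells, and in 3.48% and 1.25% after thinning. Of 38 granulocyte-like cells of EC, 2.63% (0.0666 to 13.8) held one. After thinning 0 of 30 did, which allows up to 11.6%. Both intervals contain the shares above, so shares of cells do not separate these classes.

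Within LepR_tdT the higher endothelial level of Mertk could not be seen at this depth. Its 60 endothelial-like cells held 3 Mertk UMIs, 15.2 CPM (3.13 to 44.4), and the log2 ratio to stromal-like cells was 0.40 (-1.90 to 1.97). The difference between the classes of the 2 libraries therefore cannot be told apart from a difference between the libraries. Osteolineage-like cells held more Mertk than stromal-like cells by a log2 ratio of 0.76 (0.10 to 1.37), which did not pass 2-fold. The pericyte-like cells held none, which allows up to 52.6 CPM.

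Macrophages carry Mertk, so their markers were read in the same cells. The 12 macrophage markers summed to 18.4 CPM in sinusoidal-like and 17.8 CPM in stromal-like cells, of which 3 and 2 were at 0, and to 11.7 CPM in arterial-like cells, with 10 at 0. In sinusoidal-like cells Adgre1, Cd163 and Fcgr1 were at 0, while C1qb held 17 UMIs, Csf1r 5, C1qc 4, Vsig4 2, and Cd5l and Ms4a7 1 each. The less specific Lyz2, Cd68 and Ctss held 106, 59 and 26. The part of macrophage RNA in the Mertk level was not tested. Free RNA held the list at 842 CPM in EC, and granulocyte-like cells of EC at 8074 CPM. Most of both was Lyz2, with 2036 of 2880 UMIs in free RNA and 3043 of 3165 in granulocyte-like cells. Endothelial-like cells with a Mertk UMI held it at 26.0 CPM (18.2 to 36.0), and those without at 17.0 CPM (14.7 to 19.6), whose intervals overlap.

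Tyro3, the member of the family best known from neurons, was close to the limit of detection. All cells together held 54 Tyro3 UMIs, 22 in LepR_tdT and 32 in EC, never more than 1 in a cell. Stromal-like cells held 18 (1.15 CPM, 0.680 to 1.81) and sinusoidal-like cells 31 (2.58 CPM, 1.76 to 3.67). Arterial-like cells held none, which allows up to 4.33 CPM. Thinning took the stromal against endothelial log2 ratio from -1.07 to -1.41, from fewer UMIs, and the gene was no longer called. Free RNA held it at 0.925 CPM in LepR_tdT and 2.05 CPM in EC.

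Axl gave most of the receptor UMIs in stromal-like, osteolineage-like and sinusoidal-like cells. A UMI counts 1 molecule whatever the transcript's length, so their UMIs were added without a length correction, and capture may differ between genes. Axl made up 74.5% (71.2 to 77.5) of the 779 receptor UMIs in stromal-like, 69.6% (59.1 to 78.7) of 92 in osteolineage-like, 68.5% (65.9 to 71.1) of 1245 in sinusoidal-like and 52.8% (38.6 to 66.7) of 53 in arterial-like cells. Mertk made up 23.2%, 27.2%, 29.0% and 47.2% (33.3 to 61.4) of them in the same order. The Axl shares of stromal-like and sinusoidal-like cells had intervals that did not overlap. Arterial-like cells had the lowest share, with an interval below that of stromal-like cells and overlapping with those of osteolineage-like and sinusoidal-like cells.

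Ligand and receptor RNA met in the same stromal cells because the ligand was in nearly all of them. Every one of the 499 stromal-like cells with an Axl UMI also held Gas6, as did 175 of the 176 with a Mertk UMI. Axl and Mertk occurred together in 28 stromal-like cells, beside 29.1 given by the product of their shares within 5 depth groups. In sinusoidal-like cells Gas6 and Axl met in 248 cells (239 by the product), Gas6 and Mertk in 129 (108) and Pros1 and Mertk in 189 (177). Pros1 and Axl met there in 388 (390). In arterial-like cells Gas6 and Axl met in 8 (10.8), Gas6 and Mertk in 7 (7.98), Pros1 and Mertk in 10 (12.4) and Pros1 and Axl in 18 (16.2). In osteolineage-like cells Axl and Mertk met in 0 of 236 cells, where the product gave 3.27. Depth is shared by both genes of a pair, and these counts describe the libraries without a test.

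Of 9 genes for the ligands and their maturation, 8 were measured: 5 were higher in stroma, 0 in endothelium and 3 in neither. The 5 were the ligand genes Gas6, Tub and Lgals3 and the maturation genes Ggcx and Vkorc1, while the maturation genes Vkorc1l1 and Furin were in neither. Their median log2 ratio was 1.41, beside 0.11 over all genes and the 21.4% called in that direction. Gamma-carboxylation needs the carboxylase Ggcx, at 29.1 against 12.3 CPM (log2 ratio 1.24, 0.98 to 1.51). It also needs the vitamin K epoxide reductase Vkorc1, at 250.7 against 84.2 CPM (1.57, 1.48 to 1.67). Tub, a proposed ligand of Mertk, lay at 7.71 against 0.156 CPM, the latter from 2 UMIs, so that its log2 ratio of 5.63 has a wide interval (3.75 to 8.69). Lgals3, which encodes galectin-3, another proposed Mertk ligand, had a log2 ratio of 2.11 (1.28 to 3.05).

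Other vitamin K-dependent proteins mostly fell below 20 UMIs. Of 13 genes with a Gla domain, 6 were measured, with 3 higher in stroma, 0 in endothelium and 3 in neither, where 21.4% of all genes were called higher in stroma. Of those 3, 1 was Gas6 itself. The others were Mgp, the matrix Gla protein that holds back calcification, at 3423 against 124 CPM (log2 ratio 4.79, 4.72 to 4.86), and Prrg3 at 8.73 against 0.856 CPM (3.35, 2.47 to 4.39). The liver clotting factor genes F7, F9 and Proz had no UMI in either class.

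**Figure D4:**
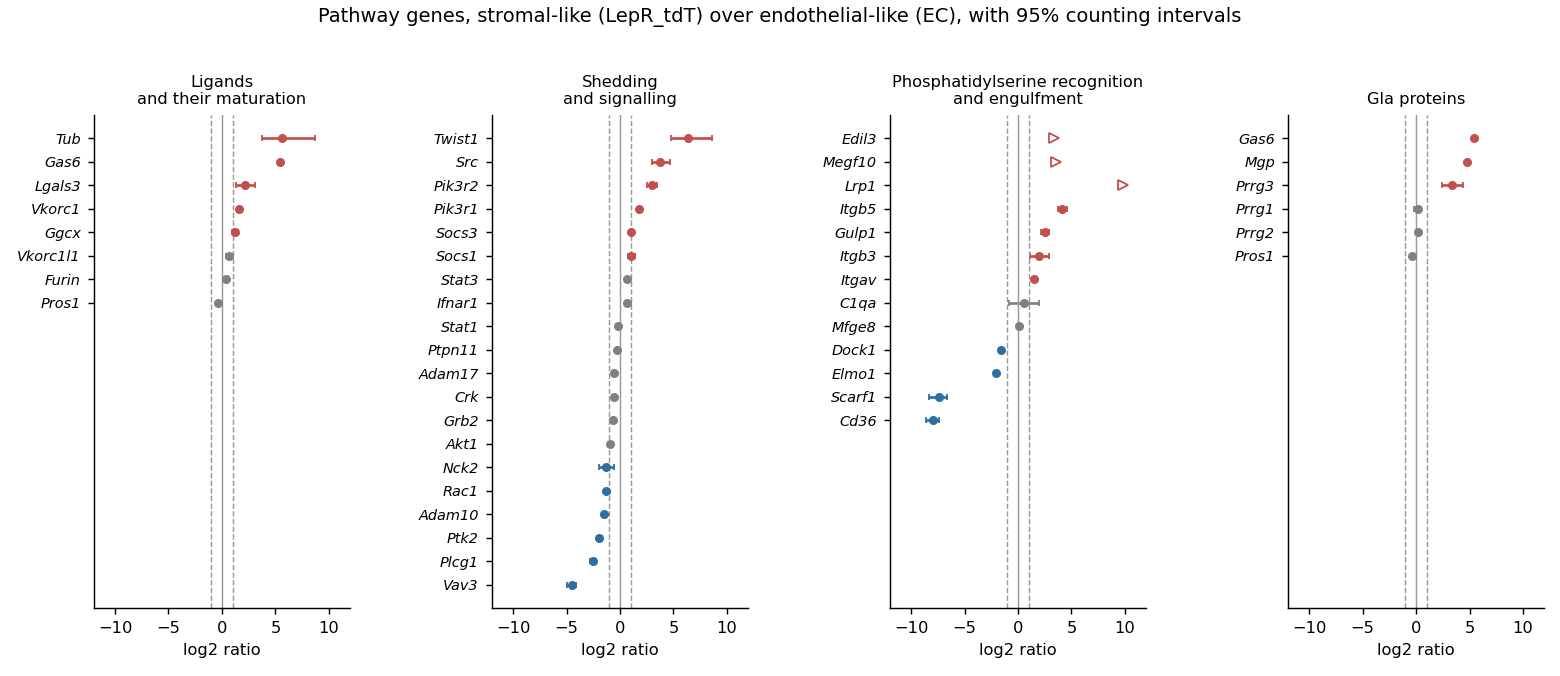
Log2 ratio of stromal-like over endothelial-like level (x axis) for each measured gene of the pathway lists, with exact 95% counting intervals; red is higher in stroma, blue higher in endothelium, grey neither, and open triangles are lower bounds where 1 class held no UMI. The list of ligands and their maturation has 5 genes in red, Gas6 among them, and none in blue, while shedding and signalling has 6 of each; over all genes 21.4% were called higher in stroma and 17.4% higher in endothelium. The genes of phosphatidylserine exposure are not drawn.

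Of 21 genes of receptor shedding and signalling, 20 were measured, with 6 higher in stroma, 6 higher in endothelium and 8 in neither, and a median log2 ratio of -0.39. The background was 21.4% and 17.4% of all genes. The transcription factor gene Twist1, which Axl signalling uses to restrain cytokines in mouse macrophages, lay at 19.1 against 0.234 CPM (6.36, 4.79 to 8.64), and the kinase gene Src at 14.8 against 1.09 CPM (3.77, 2.99 to 4.66). Socs3, a cytokine inhibitor that TAM signalling induces in dendritic cells, lay at 506 against 245 CPM (1.05, 0.99 to 1.11). On the endothelial side lay Vav3, which encodes a guanine nucleotide exchange factor, at 68.8 against 3.06 CPM (-4.49, -4.94 to -4.07), and the GTPase gene Rac1, which drives the actin changes of engulfment, at 529 against 219 CPM (-1.27, -1.33 to -1.21). Of the sheddases that release the receptors' outer domains, named for that role after their values were seen, Adam10 lay at 31.0 CPM in stroma and 84.6 CPM in endothelium (-1.45, -1.61 to -1.29), and Adam17 was called in neither (-0.54, -0.74 to -0.34).

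Other routes that recognise phosphatidylserine differed in both directions. Of 17 genes of recognition and engulfment, 13 were measured, with 7 higher in stroma, 4 in endothelium and 2 in neither, against 21.4% and 17.4% of all genes. Their median was 1.48 on the log2 scale. After thinning, 9 were measured and 4 were higher in stroma and 4 in endothelium. Lrp1, an engulfment receptor with many ligands, had 3297 UMIs (210 CPM) in stroma and none in endothelium, which makes it at least 899.8-fold higher against a floor of 3 UMIs in the class. Itgb5, which pairs with integrin alpha V to bind Mfge8, was 17.7-fold higher in stroma, at 62.0 CPM (log2 ratio 4.15, 3.71 to 4.61). On the endothelial side lay the scavenger receptor genes Cd36, at 415 against 1.66 CPM (-7.97, -8.58 to -7.42), and Scarf1, at 129.8 against 0.765 CPM (-7.41, -8.36 to -6.60). Mfge8, a bridging protein like Gas6, was nearly level at 261 and 242 CPM (0.11, 0.04 to 0.17).

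Of 7 genes that expose or hide phosphatidylserine on the cell's own surface, all measured, 0 were higher in stroma, 2 in endothelium and 5 in neither, where 21.4% and 17.4% of all genes were called. Their median was -0.44 on the log2 scale. Among those higher in endothelium was the flippase gene Atp8a1 (-3.55, -4.31 to -2.86), while the flippase subunit gene Tmem30a lay at 168 and 172 CPM. 

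Between osteolineage-like and stromal-like cells, Gas6 was the 1 gene of 9 on the ligand list that was called lower, Lgals3 was called higher (log2 ratio 1.22, 0.28 to 2.05) and 7 were in neither. Over all genes 5.91% were called lower and 4.88% higher in osteolineage-like cells. On the recognition list 4 of 11 measured genes were higher in osteolineage-like cells and 0 lower, the background being 4.88%. They were Itgb5, at 346 against 62.0 CPM (2.48, 2.32 to 2.64), Itgb3 (2.81, 2.18 to 3.41), Megf10 (2.13, 1.18 to 3.01) and Edil3 (1.99, 0.92 to 2.97), which encode integrin subunits, an engulfment receptor and a bridging protein. The integrin subunits also serve in the adhesion of bone cells to matrix. Of 20 measured genes of shedding and signalling, 1 was higher in osteolineage-like cells and 2 were lower, beside 4.88% and 5.91% of all genes. The higher one was Twist1, at 47.0 against 19.1 CPM (1.30, 0.87 to 1.70). The lower ones were Src (-1.24, -2.47 to -0.24) and Vav3, with 0 UMIs against 48.

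Over the 11 cluster sums of at least 50 cells, the genes most like Gas6 by Pearson's r of log2(CPM + 1) were Cebpa and Rpn2 (both 0.99) and Serping1, Foxc1 and Esm1 (each 0.98). Cebpa and Foxc1 are naming markers of the stromal class, so the clusters were in part defined by them. For Axl the nearest were Snd1 and Sdad1 (both 0.98), and for Mertk Tmem2 and Stox2 (both 0.98). A shallow cluster of 124 EC cells held 0 Axl UMIs, and the 84 erythroid-like cells of EC held 1 Mertk UMI. Such low sums can set much of an r, and their weight was not tested. Pros1 had an r of 0.77 with Mertk, 0.27 with Axl and 0.37 with Gas6. The cluster sums share 2 libraries and differ in depth, and these values are descriptions.

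The 3' end of Gas6 overlaps the last 3100 bases of Tmem255b on the opposite strand. Whether strand was used in the counting is not given in the sources used here, but Tmem255b held 2 UMIs in stroma and 14 in endothelium, against 76516 and 1422 for Gas6. Mertk contains the antisense gene Gm14011, which held 0 UMIs in both classes.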

How the data were processed

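The authors deposited 1 matrix of raw UMI counts for both libraries and a cell table, which were made with Cell Ranger 2.1.1, Seurat 2.3.4 and build mm10 per the submitters' processing notes. The roles of those tools, the annotation and the use of strand in counting are not given in the sources used here. No sample is left without a group: each library is 1 labelled population.

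All cells of the table were kept. After log scaling to 10000 UMIs per cell, 2000 variable genes were chosen. The members, the pathway lists, mitochondrial genes, tdTomato and genes seen in fewer than 10 cells were then left out. The remaining 1572 genes gave 30 components, 15 neighbours and Leiden clusters at resolution 0.5 (scanpy 1.11.5, igraph 0.11.9, Python 3.11.15). A cluster was named from at least 3 markers of a class raised 1.5-fold. A cluster of mostly shallow granulocytes was divided once, and a cluster led by cell cycle genes was left unnamed, both after its values were seen. Another rebuilding of the classes may give other names and sizes.

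UMIs were summed by class, with exact Poisson intervals for levels, conditional exact binomial intervals for ratios and Clopper-Pearson intervals for shares. Free RNA came from 326834 and 330694 droplets outside the cell table, without those at barcodes of the other library's cells. Reads from 1 molecule are collapsed into a UMI, yet intervals cover counting error only. Simulated counts were drawn with the Poisson error that the intervals assume, so they cover neither wider variation between cells nor folds under 4. On simulated counts for the stromal against endothelial comparison, 100% of 200 genes changed 4-fold were called among 12941 genes. The same was 97.5% of 199 genes for osteolineage against stromal (11892 genes) and 88.4% of 199 for arterial against sinusoidal (11100 genes). The members and lists were chosen with earlier results of these data known. The text may name all members, Pros1, and up to 6 genes per list, those with the most UMIs and those past 2-fold with the largest ratios. It may also name the 5 genes most like a member among genes with at least 200 UMIs, label checks, the 3 markers of a class with the most UMIs, and the macrophage list. Scrublet called 1 and 0 cells as doublets, so it did not work here, and doublets were kept. Alternatives were other resolutions (0.3 and 1.0), TMM (edgeR 4.0.16 in R 4.3.3) and median ratio scaling, depth filters, thinning, free RNA subtraction, other count filters and thresholds, and cells or clusters left out. The values of 1 listed gene are not reported here.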

Additional observations from a re-analysis of the deposited data

Results flagged for a closer look

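Gas6 appeared in EC droplets that no comparison above uses. Of the 838 Gas6 UMIs in droplets of at most 100 UMIs outside the cell table of EC, 354 (42.2%) lay at droplets whose barcode is that of a cell in LepR_tdT. Those 4116 droplets were 1.23% of the 334810 droplets and held 2.96% of all their UMIs. The same share was 1.99% for Axl, 1.30% for Mertk and 3.39% for Pros1. In the other direction, 72 of 9738 Gas6 UMIs in LepR_tdT (0.739%) lay at barcodes of EC cells, beside 7.14% for Axl. The free-RNA levels of the report leave such droplets out, and the origin of these UMIs was not tested.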

How the results depend on the processing

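Of 528 values recomputed under an alternative, 508 stayed within the interval or count limit of the reported value, 20 moved and 0 changed direction. The call was the same for 179 of 183 ratios. Some alternatives left out so few cells that they could hardly move a value. Scrublet calls took out 1 stromal-like and 0 endothelial-like cells, and markers of another class 6 and 0. Tyro3, with no arterial-like UMI, has no ratio between the endothelial subclasses. The stromal against endothelial log2 ratio of Gas6 was 5.38 with TMM factors and 5.54 with free RNA subtracted, and that of Pros1 was -0.45 with TMM factors. The osteolineage against stromal ratio of Gas6 was -0.50 at resolution 1.0, where the class is wider. Other changed calls were Axl between arterial-like and sinusoidal-like cells at resolution 1.0 (-0.90), Tyro3 between stromal-like and endothelial-like cells after thinning (-1.41, from fewer UMIs), and Mertk between osteolineage-like and stromal-like cells, called higher after thinning (1.45). Mertk between arterial-like and sinusoidal-like cells moved to -0.95 after thinning, in neither. With a fold of 1.5, 1 exposure gene was higher in stromal-like cells, and after thinning 4 recognition genes were (of 9 measured). TMM factors moved the median of all genes between arterial-like and sinusoidal-like cells from 0.12 to -0.08. Leaving out shared barcodes, mixed cells, very deep cells or the cluster led by Cxcl5 and Kit changed no call. No paired analysis was possible because each population has 1 library, and for the same reason no replicate could be left out. Depth limits Tyro3 and the small classes of LepR_tdT: no member's level there has a close interval except that of Gas6.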

Other observations

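The 711 unnamed cells of EC, with a median depth of 568 UMIs, held Mertk at 51.5 CPM (33.3 to 76.0), from 25 UMIs in 25 cells, beside 30.1 CPM in sinusoidal-like cells. Axl in the same cells was 43.3 CPM (26.8 to 66.1). The 8 cells of LepR_tdT led by cell cycle genes all held Gas6, at 1893 CPM (1542 to 2300), while the 16 such cells of EC held 3 Gas6 UMIs.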
